A study of Mus musculus with 24 samples.

Results

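The response of mouse embryonic fibroblasts to Dexa was measured by RNA-seq and compared between siCTRL cells (control small interfering RNA) and siCop1 cells (Cop1 knockdown) that all carried the compound KL001. The comparison asks whether loss of Cop1 changes the transcriptional response to Dexa in cells treated with KL001. The quantity is a difference of differences, called the term below: the log2 change with Dexa in siCop1 KL001 cells minus the log2 change with Dexa in siCTRL KL001 cells. A term below 0 means that Dexa raised a gene less, or lowered it more, in siCop1 cells, and a term above 0 the reverse. The comparison uses 12 of the 24 libraries and 4 of the 8 groups of the study, with 3 libraries in each group: siCTRL with KL001, siCTRL with KL001 and Dexa, siCop1 with KL001, and siCop1 with KL001 and Dexa. All cells were wild type, and KL001 was present in every one of the 12 libraries. The other 12 libraries hold the same siRNA and Dexa groups in DMSO in place of KL001. Every gene was considered, and 14772 of the 47480 genes in the table passed the filter on low counts and were tested. Neither a dose, nor an exposure time, nor an siRNA sequence is stated in the labels, and Dexa is written here as the labels write it. The labels number the replicates without saying whether they were separate cultures, so p-values measure the spread between these libraries, which may be technical.

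Cop1 (listed in the table under its older symbol Rfwd2) is the substrate-binding part of a CRL4 ubiquitin ligase, in which Det1, Ddb1 and Cul4 proteins link it to the machinery that marks proteins such as Jun and the ETS factors for degradation. Cryptochromes are the repressor proteins of the circadian clock, and KL001 is a small molecule known to stabilise them. The glucocorticoid receptor is a hormone-activated transcription factor held ready by Hsp90 and its co-chaperones, and in fibroblasts its activation raises genes such as Fkbp5, Tsc22d3 and Per1 and lowers inflammatory genes.

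Library totals among the 12 ran from 21409988 to 26307891 counts. The fibroblast marker list (collagens, Vim, Pdgfra and others) summed to between 35200 and 45100 CPM (counts scaled to library size by TMM) in every library. Of the 6 skeletal muscle markers, 2 (Myod1 and Myog) had no count in any of them, and the list summed to between 2.3 and 10.8 CPM. The simple and airway epithelium list summed to between 30.2 and 112 CPM, and the squamous epithelium list to between 9.63 and 37 CPM. The siCTRL KL001 library without Dexa numbered 2 lay lowest on the third principal component, at -29.9. Below, it is called the library that stood apart. The siCTRL library with Dexa of the same number followed, at -19.4. The siCTRL libraries numbered 3 lay at the other end, at 13.2 without Dexa and 24.4 with it. Those numbered 1 lay between, at 5.55 and 2.44. This component thus spread the siCTRL libraries by number in both Dexa states, and did not single out that library alone. The 10 heart muscle markers of the library that stood apart summed to 104 CPM. Those sums ranged from 7.88 to 104 CPM in siCTRL without Dexa, 7.41 to 31.0 CPM in siCTRL with Dexa, 2.81 to 3.71 CPM in siCop1 without Dexa and 3.64 to 4.14 CPM in siCop1 with Dexa. None of the heart muscle markers was called for the term, and no member of the other 8 marker lists was. The first 2 components, with 34.6% and 24.8% of the variance, separated the libraries by Dexa and by siRNA. These are bulk samples, in which fewer cells of a kind and less RNA per cell cannot be told apart.

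No difference between the siRNAs in the response to Dexa was called for the targeted gene itself, which was lower in siCop1 in both states. Rfwd2 was at 28.7, 26.2 and 27.97 CPM in siCTRL without Dexa and at 27.9, 27.7 and 28.6 CPM with it. In siCop1 cells it was at 4.33, 5.17 and 5.79 CPM without Dexa and at 4.49, 5.11 and 4.98 CPM with it. All 6 siCop1 libraries lay below all 6 siCTRL libraries, and within each siRNA the Dexa groups overlapped. The knockdown was -2.43 on the log2 scale (SE 0.072) without Dexa and -2.53 (SE 0.075) with it, and the term was -0.09 (SE 0.11, edgeR adjusted p = 0.935).

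The response to Dexa differed between siCop1 and siCTRL for a small set of genes, mostly by modest amounts. Of the genes tested, 83 had an adjusted p below 0.05 in edgeR's quasi-likelihood test (0.562% of all genes tested), 39 with a term above 0 (0.264%) and 44 with a term below 0 (0.298%). The balance of signs moved with single siCTRL libraries without Dexa, from 29 higher and 60 lower without the one numbered 1 to 52 higher and 42 lower without the one numbered 2, and it was 60 to 96 without the filter on low counts. For scale, Dexa changed 3952 genes in siCTRL KL001 cells (26.8%) and 3620 in siCop1 KL001 cells (24.5%). The absolute terms of the 83 ran from 0.17 to 2.29 on the log2 scale with a median of 0.41. In 58 of the 83 it was below 0.5, and 4 genes reached a 2-fold difference (0.0271%). Their median level was 36.8 CPM, against 25.45 CPM over all genes tested. Without a correction for the number of genes, 1133 genes (7.67%) had p below 0.05. In the 12 fits that each left out 1 library the count ran from 43 to 94, and 36 genes (14 higher, 22 lower) were called in every one. It fell to 43 without the siCop1 KL001 library with Dexa numbered 2 and to 54 without the siCop1 KL001 library without Dexa numbered 3. Without the siCTRL library without Dexa that stood apart there were 94 calls, 69 of them among the 83.

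Genes of 2 kinds made up most of the 83. Genes that Dexa raises mostly had a term below 0, and genes that Dexa lowers mostly had a term above 0. The Dexa class was taken from the siCTRL DMSO libraries, which are not among the 12, so the sorting shares no library with the values compared. The sorting still rests on siCTRL cells alone, and all 83 genes had a term of the same sign in DMSO. It can therefore favour genes with a weaker response in siCop1, and the splits by sign below are a description. There Dexa raised 1881 genes (12.7% of those tested) and lowered 2076 (14.1%). Of the 1881 raised genes, 50 were called for the term (2.66%), 37 with a lower and 13 with a higher term. Of the 2076 lowered genes, 24 were called (1.16%), 22 with a higher and 2 with a lower term. Among the 10815 genes that did not pass the test for Dexa there, 9 were called (0.0832%), 5 lower and 4 higher.

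**Figure D1:**
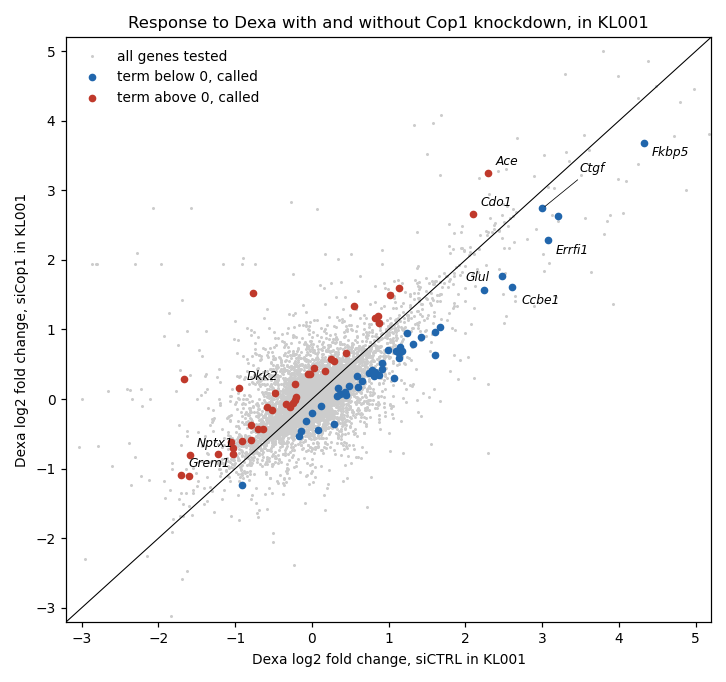
Each point is 1 gene, placed by its log2 fold change with Dexa in siCTRL KL001 cells (horizontal) and in siCop1 KL001 cells (vertical). The diagonal marks equal responses. The 44 called genes with a term below 0 (blue) lie under the diagonal and the 39 with a term above 0 (red) over it, by the definition of the term, and 13 uncalled genes fall outside the axes, which run from -3.2 to 5.2.

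Among the genes with a weaker Dexa induction in siCop1 cells were Errfi1, Fkbp5 and Glul, all members of the list of 32 glucocorticoid response genes. Errfi1 (chr4:150853919-150868892 on GRCm38, protein coding) encodes a feedback inhibitor of the EGF receptor kinase. It was at 31.2, 26.9 and 26.7 CPM in siCTRL without Dexa and at 244, 234 and 235 CPM with it. In siCop1 cells it was at 51.1, 49.7 and 50.4 CPM without Dexa and at 248, 245 and 242 CPM with it. The siCop1 libraries were the higher ones without Dexa, with no overlap, and the groups overlapped once Dexa was present. The induction was thus 8.40-fold in siCTRL and 4.87-fold in siCop1, and the term was -0.79 (SE 0.057, edgeR adjusted p = 7.53e-10). Without the siCTRL library that stood apart it was -0.76.

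Fkbp5 (chr17:28399094-28517527) encodes an Hsp90 co-chaperone that restrains the glucocorticoid receptor and is itself a standard target of it. Its level was 33.4, 37.1 and 34.7 CPM in siCTRL without Dexa and 715, 699 and 695 CPM with it. The siCop1 libraries had 47.8, 47.3 and 44.3 CPM without Dexa and 596, 603 and 594 CPM with it. Here the order of the siRNAs turned: siCop1 was the higher one without Dexa and the lower one with it, and neither pair of groups overlapped. Induction was 20.1-fold against 12.9-fold, with a term of -0.64 (SE 0.049, edgeR adjusted p = 1.01e-09), or -0.68 without the library that stood apart. Glul, which encodes glutamine synthetase (chr1:153899944-153909723), turned in the same way. Its siCTRL libraries rose from 9.48, 10.5 and 9.05 CPM to 54.9, 53.2 and 53.1 CPM, and its siCop1 libraries from 13.3, 14.9 and 15.1 CPM to 52.1, 45.6 and 49.4 CPM. The siCop1 group lay above the siCTRL group without Dexa and below it with Dexa, and the term was -0.71 (SE 0.087, edgeR adjusted p = 8.24e-06), or -0.77 without that library. Exons of Glul share bases with Mir8114 on its strand and Teddm2 on the other. The kit keeps strand, but the strand setting of the authors' counting is not stated, so how such reads were assigned is uncertain.

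The stretches before the start sites of the 3 genes with the smallest adjusted p for the term are shown here. Errfi1 and Fkbp5 had a weaker induction in siCop1. Dkk2, described below, fell with Dexa in siCTRL and rose slightly in siCop1. They are the 250 bases before a RefSeq start (GRCm38.p6), read in the direction of the gene, with motif matches in capitals. The windows are chr4:150854820-150855069 (plus strand, before the second listed start) for Errfi1, chr17:28486150-28486399 (minus strand) for Fkbp5 and chr3:132085042-132085291 (plus strand) for Dkk2.
Errfi1: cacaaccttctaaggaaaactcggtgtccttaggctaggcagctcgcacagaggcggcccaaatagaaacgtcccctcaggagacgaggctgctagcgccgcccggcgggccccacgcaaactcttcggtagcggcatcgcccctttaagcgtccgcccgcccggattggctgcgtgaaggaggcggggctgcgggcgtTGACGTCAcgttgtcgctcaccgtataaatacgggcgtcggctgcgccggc
Fkbp5: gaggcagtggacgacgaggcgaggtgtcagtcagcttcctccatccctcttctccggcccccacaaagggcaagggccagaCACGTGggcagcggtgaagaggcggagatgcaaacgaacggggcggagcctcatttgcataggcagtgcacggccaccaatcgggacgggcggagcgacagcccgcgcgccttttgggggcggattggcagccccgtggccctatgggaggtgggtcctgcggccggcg
Dkk2: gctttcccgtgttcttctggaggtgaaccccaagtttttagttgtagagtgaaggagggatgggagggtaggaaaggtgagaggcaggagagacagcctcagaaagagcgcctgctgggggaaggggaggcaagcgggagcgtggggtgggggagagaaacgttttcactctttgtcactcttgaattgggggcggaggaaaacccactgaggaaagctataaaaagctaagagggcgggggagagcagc
The Errfi1 and Fkbp5 windows lie inside the annotated spans of these genes, before internal starts. The Errfi1 window shown holds a cAMP response element (TGACGTCA), the Fkbp5 window an E-box (CACGTG), and the Dkk2 window none of the 5 motifs searched on both strands. The window before the first listed start of Errfi1 (not shown) also holds none of the 5. Of the 83 genes, 59 had a RefSeq start in the table, as had 10498 of the genes tested. The cAMP response element was found for 2 of the 59 (3.39%) against 3.02% of tested genes with a start and 1.77% of all. The E-box was found for 4 (6.78%) against 9.83% and 6.86%, and the AP-1 motif TGANTCA for 6 (10.2%) against 5.92% and 7.82%. The ETS motif CCGGAAGT (6.47% and 3.23%) and a full palindromic glucocorticoid response element (0.0286% and 0.0333%), were found for none of the 59. None of these motifs contains another, and the called gene Sgms2 held both an AP-1 motif and an E-box. A match describes letters in a short window and says nothing about binding.

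Other genes with a weaker induction by Dexa in siCop1 cells encode secreted proteins, receptors and enzymes. Fst (chr13:114452290-114458951) encodes follistatin, which binds and neutralises activins. It rose from 9.56, 9.79 and 10.8 CPM to 47.3, 47.5 and 47.8 CPM in siCTRL and from 12.6, 12.4 and 11.7 CPM to 36.6, 35.1 and 37.01 CPM in siCop1. All siCop1 libraries lay above siCTRL without Dexa and below it with Dexa, and the term was -0.67 (SE 0.085, edgeR adjusted p = 1.42e-05). Ccbe1, a secreted protein needed for lymphatic vessel growth, had the most negative term of the 83, at -1 (SE 0.17, edgeR adjusted p = 0.00173). It stood at 2.33, 1.85 and 2.13 CPM in siCTRL without Dexa and 13.01, 12.9 and 12.6 CPM with it. In siCop1 it stood at 4.02, 4.71 and 4.52 CPM and 12.2, 14.5 and 13.6 CPM. The siRNAs were apart without Dexa, where siCop1 was higher, and overlapped with Dexa.

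Vdr, the vitamin D receptor, differed from these in that siCop1 was the lower group in both states. It rose from 10.6, 11.7 and 12.7 CPM to 33.7, 35.5 and 36.9 CPM in siCTRL, and from 10.02, 9.31 and 9.86 CPM to 19.5, 17.8 and 19.8 CPM in siCop1, with a term of -0.63 (SE 0.093, edgeR adjusted p = 0.000185). The siRNA groups did not overlap, and the gap was wider with Dexa. Klf5, a zinc finger transcription factor, was induced 2.11-fold in siCTRL and 1.23-fold in siCop1, from 3.63 ± 0.267 to 7.66 ± 0.307 CPM and from 6.05 ± 0.854 to 7.42 ± 0.560 CPM (mean ± SD, n = 3), with a term of -0.78 (SE 0.15, edgeR adjusted p = 0.00860). St3gal1, a sialyltransferase, overlapped between the siRNAs with Dexa, at 47.6 ± 2.33 CPM in siCTRL and 47.5 ± 1.15 CPM in siCop1 (SD, n = 3). Without Dexa it was at 17.9 ± 0.255 and 25.6 ± 2.15 CPM, so its term was -0.52 (SE 0.078, edgeR adjusted p = 0.000246). Fam180a was induced 3.17-fold against 2.06-fold, with a term of -0.62 (SE 0.092, edgeR adjusted p = 0.000206).

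Stc2 and Aif1l fell with Dexa in siCop1 and did not fall in siCTRL. Stc2, a secreted glycoprotein, rose from 25.3, 25.5 and 24.2 CPM to 29.8, 31.6 and 30.2 CPM in siCTRL and fell from 46.3, 45.5 and 44.9 CPM to 37.7, 33.9 and 34.96 CPM in siCop1. Each Dexa change was free of overlap and passed the test in its own siRNA, and the term was -0.65 (SE 0.074, edgeR adjusted p = 3.24e-06). Aif1l, an actin-binding protein, fell by 0.44 on the log2 scale in siCop1 (edgeR adjusted p = 2.22e-05), whereas its siCTRL groups overlapped, at 9.55 ± 0.395 CPM without and 10.1 ± 0.359 CPM with Dexa (SD, n = 3). Its term was -0.52 (SE 0.10, edgeR adjusted p = 0.00860). Dusp5, a nuclear phosphatase that acts on ERK, was induced 1.83-fold in siCTRL and 1.27-fold in siCop1, with a term of -0.52 (SE 0.10, edgeR adjusted p = 0.00860).

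**Figure D2:**
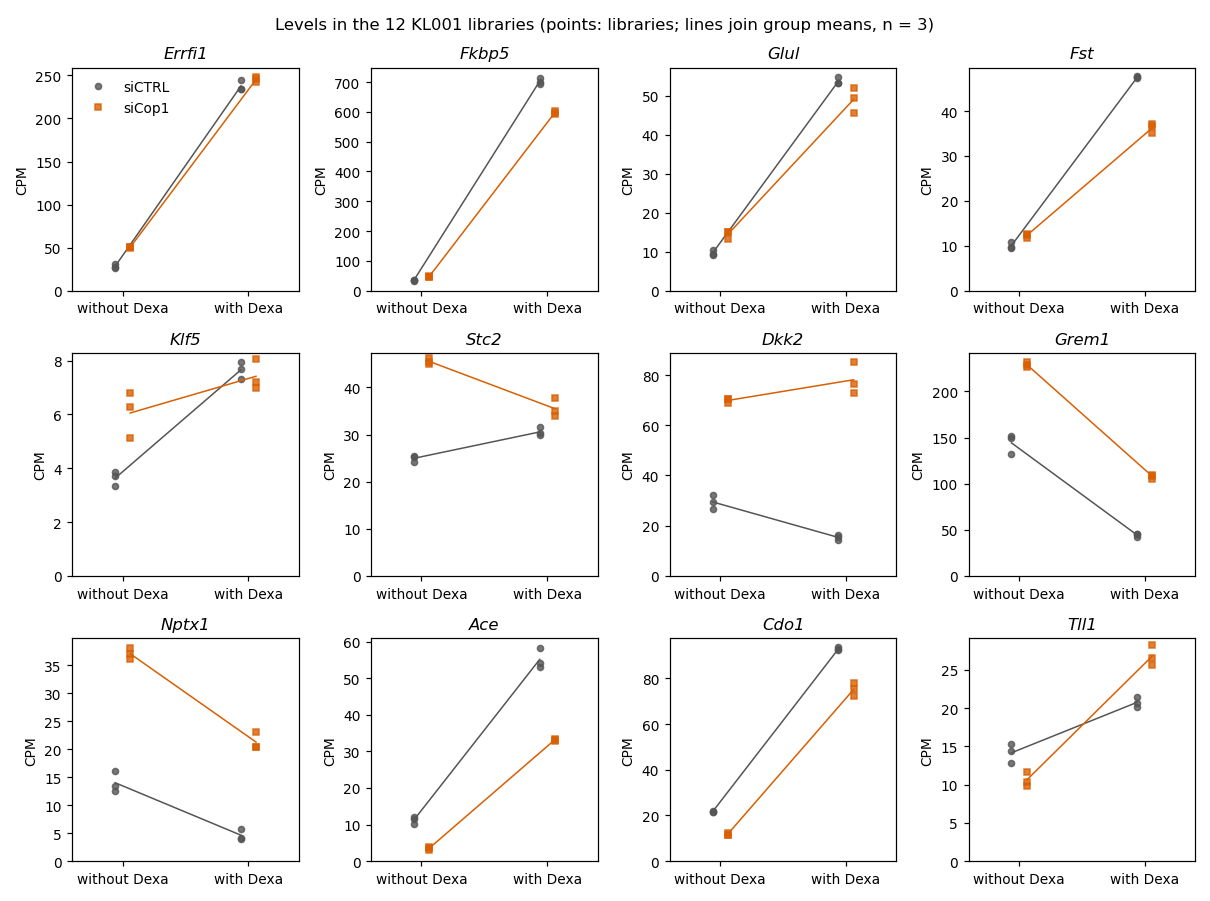
Level in CPM of 12 genes in the 12 KL001 libraries, without and with Dexa. Points are libraries (grey circles siCTRL, orange squares siCop1), and lines join group means of 3 libraries. The siCop1 line is the flatter one for Errfi1, Fkbp5, Glul, Fst and Klf5, and the Stc2 and Dkk2 lines slope in opposite directions.

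Among genes that Dexa lowered in siCTRL, Dkk2, Grem1 and Nptx1 had the largest positive terms of those named, and all 3 were higher in siCop1 than in siCTRL throughout. Dkk2 (chr3:132085292-132180304) encodes a secreted modulator of Wnt signalling. In siCTRL it fell from 29.4, 26.7 and 32.3 CPM to 16.2, 14.4 and 15.4 CPM with Dexa. In siCop1 it went from 70.4, 68.9 and 70.3 CPM to 85.3, 76.3 and 72.8 CPM. No siCop1 library overlapped a siCTRL library, and the Dexa groups were apart in each siRNA, in opposite directions. The Dexa change was -0.94 (SE 0.070, edgeR adjusted p = 4.07e-12) in siCTRL and 0.16 (SE 0.052, edgeR adjusted p = 0.0207) in siCop1. No such rise was called in the siCop1 DMSO libraries, where the change was 0.04 (SE 0.050, edgeR adjusted p = 0.626). The term of 1.11 (SE 0.087, edgeR adjusted p = 1.93e-09) corresponds to more than a 2-fold difference, and it ran from 1.03 to 1.17 when single libraries were left out, with 1.17 without the library that stood apart.

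Grem1 (chr2:113746164-113758646), a secreted antagonist of bone morphogenetic proteins, fell from 149.5, 132 and 152 CPM to 41.97, 45.6 and 44.9 CPM in siCTRL. In siCop1 it fell from 232, 229 and 227 CPM to 109.9, 109 and 105 CPM. All 4 groups were apart, and the fall was to 0.306 of the level without Dexa in siCTRL and to 0.471 in siCop1. The term was 0.62 (SE 0.065, edgeR adjusted p = 8.34e-07). Nptx1, a secreted pentraxin best known from neurons (chr11:119538719-119547753), fell from 16.1, 12.6 and 13.4 CPM to 3.99, 4.21 and 5.72 CPM in siCTRL and from 36.1, 38.2 and 36.96 CPM to 23.1, 20.4 and 20.3 CPM in siCop1. Its groups were likewise all apart, with a term of 0.79 (SE 0.14, edgeR adjusted p = 0.00161). Pcdh18, a protocadherin, fell to 0.576 of its level in siCTRL and to 0.772 in siCop1, with a term of 0.42 (SE 0.083, edgeR adjusted p = 0.00860). Fgf10, a growth factor that mesenchyme sends to epithelium, fell from 32.98 ± 2.93 to 23.5 ± 2.58 CPM in siCTRL (SD, n = 3). In siCop1 its Dexa groups overlapped, at 25.1 ± 0.929 and 26.6 ± 1.31 CPM, and its term was 0.57 (SE 0.094, edgeR adjusted p = 0.00107).

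A smaller set was induced by Dexa more strongly in siCop1 cells. Of these, Ace, Cdo1, Cftr and Tll1 were lower in siCop1 than in siCTRL without Dexa. Ace (chr11:105967945-105989964), the angiotensin-converting enzyme, rose from 11.7, 10.2 and 11.95 CPM to 58.2, 53.2 and 54.1 CPM in siCTRL. It rose from 3.16, 3.51 and 3.77 CPM to 33.5, 33.1 and 32.9 CPM in siCop1. The siCop1 libraries were below siCTRL in both states without overlap, by -1.69 without Dexa and -0.73 with it on the log2 scale. Induction was therefore 4.89-fold against 9.51-fold, with a term of 0.96 (SE 0.11, edgeR adjusted p = 4.67e-06). Cdo1, cysteine dioxygenase, rose from 21.6, 21.5 and 22.01 CPM to 92.8, 92.4 and 93.5 CPM in siCTRL and from 11.7, 11.6 and 12.3 CPM to 75.2, 72.1 and 77.97 CPM in siCop1. It too was lower in siCop1 in both states, with a narrower gap under Dexa, and its term was 0.56 (SE 0.065, edgeR adjusted p = 3.30e-06). For Cftr, the chloride channel mutated in cystic fibrosis, induction was 2.19-fold against 3.03-fold, with a term of 0.47 (SE 0.077, edgeR adjusted p = 0.00110). Tll1, a metalloprotease of the tolloid family, changed order: siCop1 was lower without Dexa, at 10.6 ± 0.952 against 14.2 ± 1.24 CPM, and higher with it, at 26.8 ± 1.31 against 20.8 ± 0.653 CPM (SD, n = 3). Its term was 0.79 (SE 0.11, edgeR adjusted p = 5.02e-05).

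Plpp3 and Enpp2 encode enzymes of the same lipid, lysophosphatidic acid, which Enpp2 (autotaxin) makes and Plpp3 breaks down. Both overlapped between Dexa groups in siCTRL, and both rose with Dexa in siCop1. Plpp3 was at 147, 129.8 and 143 CPM and 147, 141 and 139 CPM in siCTRL without and with Dexa, and at 99.98, 97.4 and 103 CPM and 138, 136 and 135 CPM in siCop1. Enpp2 had means of 59.6 ± 5.82 and 58.6 ± 1.45 CPM in siCTRL and of 43.03 ± 0.213 and 55.02 ± 1.64 CPM in siCop1 (SD, n = 3). In each, siCop1 was the lower group without Dexa and within 0.1 of siCTRL on the log2 scale with it. The terms were 0.42 (SE 0.057, edgeR adjusted p = 4.58e-05) for Plpp3 and 0.38 (SE 0.068, edgeR adjusted p = 0.00313) for Enpp2. Sepp1, selenoprotein P, which carries selenium, rose 1.19-fold in siCTRL and 1.495-fold in siCop1, where it was higher throughout, with a term of 0.33 (SE 0.058, edgeR adjusted p = 0.00173). Exons of Sepp1, Ace, Fgf10, Cftr, Enpp2, Ccbe1, Fst, Aif1l, Dusp5, and of Ctgf, Ddb1, Jun, Foxo1, Tef, Csnk1d and Csnk1e described below, share bases with a gene on the opposite strand, so the same doubt about counting as for Glul applies to them.

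**Figure D3:**
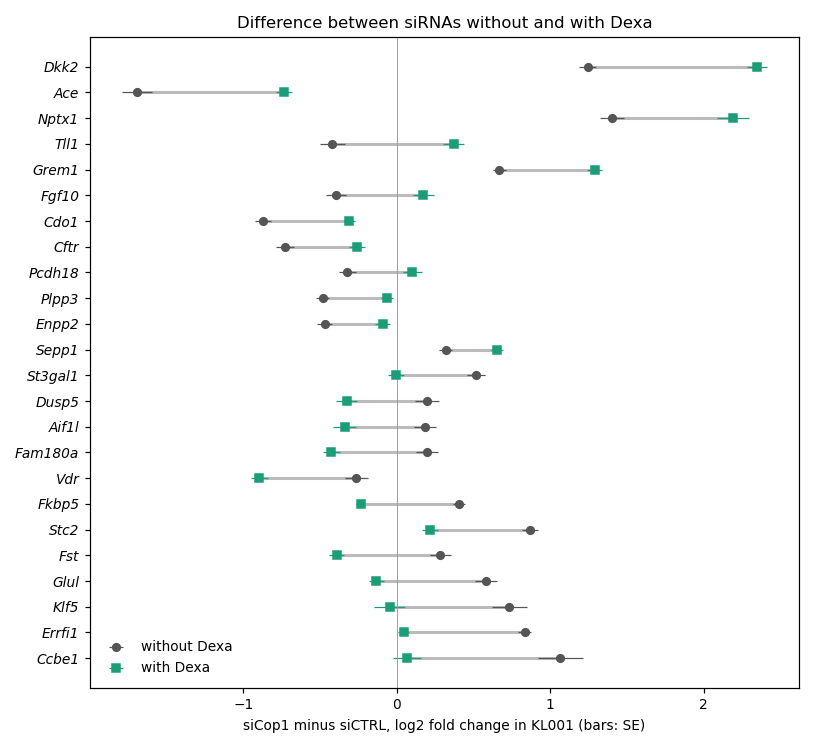
Log2 difference between siCop1 and siCTRL in KL001 for the 12 named genes of each sign, without Dexa (grey circles) and with Dexa (green squares), with standard errors. The grey bar between the points of a gene is its term. For Errfi1, St3gal1, Klf5, Ccbe1, Plpp3 and Enpp2 the point with Dexa lies within 0.1 of 0.

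Read the other way, the term is the change in the siRNA difference once Dexa is added. Over the 83 genes, the difference between siCop1 and siCTRL was larger in size without Dexa for 45 and with Dexa for 38, and it had opposite signs in the 2 states for 30. Over all genes tested the numbers were 7696, 7076 and 3274. The median absolute difference of the 83 was 0.37 without and 0.30 with Dexa on the log2 scale, against 0.13 and 0.13 over all genes. The 3 siCop1 and 3 siCTRL libraries did not overlap for 67 of the 83 without Dexa and for 65 with it, while the edgeR test called the siRNA effect for 32.7% and 30.1% of all genes in those states. Over all genes tested the groups did not overlap for 39.5% without Dexa and 45.3% with it, against 80.7% and 78.3% of the 83. The siRNA groups were apart in both states for 49 of the 83 (59%, against 27.8% of all genes), without Dexa alone for 18 (21.7%, against 11.7%) and with Dexa alone for 16 (19.3%, against 17.4%). The siRNA differences are part of the term that chose the 83, so these shares are a description.

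Most of the 32 glucocorticoid response genes were induced by Dexa in both siRNAs. In siCTRL KL001 cells Dexa raised 28 of the 32 and lowered 2, and in siCop1 KL001 cells the counts were also 28 and 2. The median log2 change with Dexa was 2.26 in siCTRL and 1.76 in siCop1. For the term, 3 of the 32 were called (9.38%, against 0.562% of all genes), all lower: Fkbp5, Errfi1 and Glul. The median of the gene-wise terms in the list was -0.06, smaller than the gap between the list medians, against 0.01 over all genes, and 21 of its members had a negative and 11 a positive term.

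Of the 32 genes, 10 had an unadjusted p below 0.05 in edgeR, against 7.67% of all genes tested. Besides the 3 called these were Dusp1, Cebpb, Lcn2 and Map3k6 with negative terms and Tsc22d3, Angptl4 and Thbd with positive ones. Angptl4 and Thbd fell with Dexa, by -0.77 and -1.21 in siCTRL and -0.59 and -0.95 in siCop1 (log2). Their positive terms are thus a weaker fall in siCop1. In the DMSO libraries 5 of the list of 32 were called, all lower, against 0.67% of all genes called there and 0.379% called lower. The most abundant of the other 29 genes had terms near 0 in KL001. Sgk1, a kinase that acts on ion transport, was induced 3.47-fold in siCTRL and 3.32-fold in siCop1, with a term of -0.06 (SE 0.044, edgeR adjusted p = 0.849). Tsc22d3, an anti-inflammatory target of the receptor also called GILZ, was at 87.6, 87.6 and 86.5 CPM and 558, 528 and 522 CPM in siCTRL without and with Dexa. In siCop1 it was at 79.8, 76.4 and 77.1 CPM and 512, 523 and 511 CPM. Its groups with Dexa overlapped between the siRNAs, and its term was 0.11 (SE 0.043, edgeR adjusted p = 0.465). Per1, both a clock gene and a direct target of the receptor, rose 5.41-fold and 5.40-fold, with a term of 0.00 to 2 decimals (SE 0.051, edgeR adjusted p = 0.998). Ddit4, an inhibitor of mTOR signalling, had a term of -0.09 (SE 0.061, edgeR adjusted p = 0.826). In DMSO its term was -0.26 (SE 0.061, edgeR adjusted p = 0.0316) and was called. Mt1, a metallothionein, had a term of -0.08 in KL001 (SE 0.11, edgeR adjusted p = 0.946). Among the receptor and its chaperones and cofactors, 12 of 14 genes were tested and Fkbp5 alone was called (8.33%, against 0.562% of all genes). Nr3c1, the receptor gene, named here outside the naming rule and after its value was seen, had a term of 0.08 (SE 0.11).

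All 22 clock genes were tested, and a term was called for none of them by edgeR or DESeq2. Only 1 of the 22 (Arntl, also known as Bmal1) had an unadjusted p below 0.05 in edgeR, against 7.67% of all genes tested. The median term of the 22 was 0.02, with 15 positive and 7 negative. Tef, an output factor of the clock, had -0.07 (SE 0.042, edgeR adjusted p = 0.766), and the kinase genes Csnk1d and Csnk1e had -0.03 (SE 0.040, edgeR adjusted p = 0.949) and 0.05 (SE 0.050, edgeR adjusted p = 0.905). Cry1 and Cry2, which encode the cryptochromes that KL001 binds, had terms of 0.21 (SE 0.12) and 0.05 (SE 0.07), neither of them called. These 2 were also named after their values were seen.

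Of the 10 genes of the Cop1 ligase and its Tribbles adaptors none was called by edgeR or DESeq2, and the median term was 0.04. An unadjusted p below 0.05 in edgeR was found for 1 of the 10 (Trib2), against 7.67% of all genes tested. The core subunit gene Ddb1 had a term of 0.00 (SE 0.038, edgeR adjusted p = 1), Cul4a 0.05 (SE 0.050, edgeR adjusted p = 0.905) and Cul4b -0.02 (SE 0.066, edgeR adjusted p = 0.979). Trib3, an adaptor gene, was lower in siCop1 to about the same degree without and with Dexa, at -0.74 and -0.70 on the log2 scale. Of the 10 genes of factors described as Cop1 substrates, Etv5 was called (10%, against 0.562% of all genes). Etv5 encodes an ETS transcription factor. It fell from 25.8, 24.3 and 25.3 CPM to 12.7, 11.3 and 12.2 CPM with Dexa in siCTRL and from 14.4, 15.8 and 14.9 CPM to 10.2, 9.71 and 9.44 CPM in siCop1. All 4 groups were apart, and siCop1 was the lower one in both states. The term was 0.44 (SE 0.089, edgeR adjusted p = 0.0134). It was called in 10 of the 12 fits that left out 1 library, and not in the other two: without the siCTRL library with Dexa numbered 2 it was 0.38 (edgeR adjusted p = 0.0688), and without the siCop1 library with Dexa numbered 1 it was 0.41 (edgeR adjusted p = 0.0552). Jun, the best known substrate, had a higher transcript level in siCop1 by 0.43 without and 0.42 with Dexa, and a term of -0.01 (SE 0.054, edgeR adjusted p = 0.981). Trp53, Foxo1 and Ets1 had terms of 0.02 (SE 0.055), -0.08 (SE 0.061) and -0.16 (SE 0.067), none of them called. Of the 10, 4 (Etv4, Etv5, Ets1 and Cebpa) had an unadjusted p below 0.05 in edgeR, against 7.67% of all genes tested. Etv4 and Cebpa, named here after their values were seen, had terms of 0.24 (SE 0.082) and 0.41 (SE 0.17), neither called. In DMSO the Etv4 term was 0.36 (edgeR adjusted p = 0.0176). The list held 5 positive and 5 negative terms in KL001.

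In the list of 13 MAPK feedback genes, Errfi1 and Dusp5 were called lower (15.4%, against 0.298% of all genes called lower). The remaining 11, among them the Spry and Spred genes and Dusp6, were not called. The list's median term was -0.02. In the AP-1 family none of 11 was called by edgeR or DESeq2, and the median was -0.06. An unadjusted p below 0.05 in edgeR was found for 3 of the 11 (Junb, Fos and Atf3), against 7.67% of all genes tested. Among 19 tested ETS and AP-1 target genes, 2 were called lower (10.5%, against 0.298% of all genes), of which Egr1 is described here. Egr1, an immediate-early transcription factor, fell from 83.1 ± 3.77 to 43.98 ± 0.432 CPM in siCTRL and from 80.2 ± 4.74 to 33.9 ± 1.14 CPM in siCop1 (SD, n = 3), with a term of -0.32 (SE 0.075, edgeR adjusted p = 0.0372). Its siRNA groups overlapped without Dexa and siCop1 was the lower one with it. The call was not firm. It was lost in 9 of the 12 fits that left out 1 library (edgeR adjusted p between 0.051 and 0.134), and kept without the siCTRL library without Dexa numbered 1, the siCTRL library with Dexa numbered 2 and the siCop1 library without Dexa numbered 2.

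Grem1 and Fst, whose values stand above, were the 2 called of 23 tested growth factor and BMP/IGF genes (8.70%, against 0.562% of all genes), 1 in each direction. In the contractile and YAP/SRF list 1 of 14, Ctgf, was called (7.14%, against 0.562% of all genes). Ctgf, a matricellular protein, rose from 126, 136 and 139 CPM to 1026, 1075 and 1113 CPM in siCTRL. In siCop1 it rose from 142, 134 and 143 CPM to 901, 960.2 and 933 CPM. The siRNA groups overlapped without Dexa and were apart with it, siCop1 being lower, and the term was -0.26 (SE 0.051, edgeR adjusted p = 0.00753). It held in all 12 fits leaving out 1 library, but with only the 12 KL001 libraries fitted the edgeR adjusted p was 0.0539. Of 23 tested cytokine, chemokine and NF-kB genes Cxcl1 alone was called (4.35%, against 0.562% of all genes). This neutrophil chemokine fell to 0.429 of its level in siCTRL and to 0.581 in siCop1, with a term of 0.44 (SE 0.11, edgeR adjusted p = 0.0474). That call was lost in 10 of the 12 fits leaving out 1 library (edgeR adjusted p between 0.0501 and 0.206), and kept without the siCTRL libraries without Dexa numbered 1 or 2. The 18 tested interferon-stimulated genes had the list median farthest from 0, at 0.19, with 15 positive and 3 negative terms. None was called by edgeR or DESeq2, and 2 had an unadjusted p below 0.05 in edgeR, against 7.67% of all genes tested. Of the 18, 5 averaged under 1 CPM. No gene was called by edgeR among 23 matrix, 20 replication, 12 p53, 14 ATF4 and unfolded protein and 15 sterol genes, whose medians were 0.06, -0.03, -0.01, 0.07 and 0.01. Their counts at an unadjusted p below 0.05 in edgeR were 6, 0, 0, 4 and 1, against 7.67% of all genes tested. The matrix list and the ATF4 and unfolded protein list were above that share. DESeq2 called 1 matrix gene and none in the other 4 lists.

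**Figure D4:**
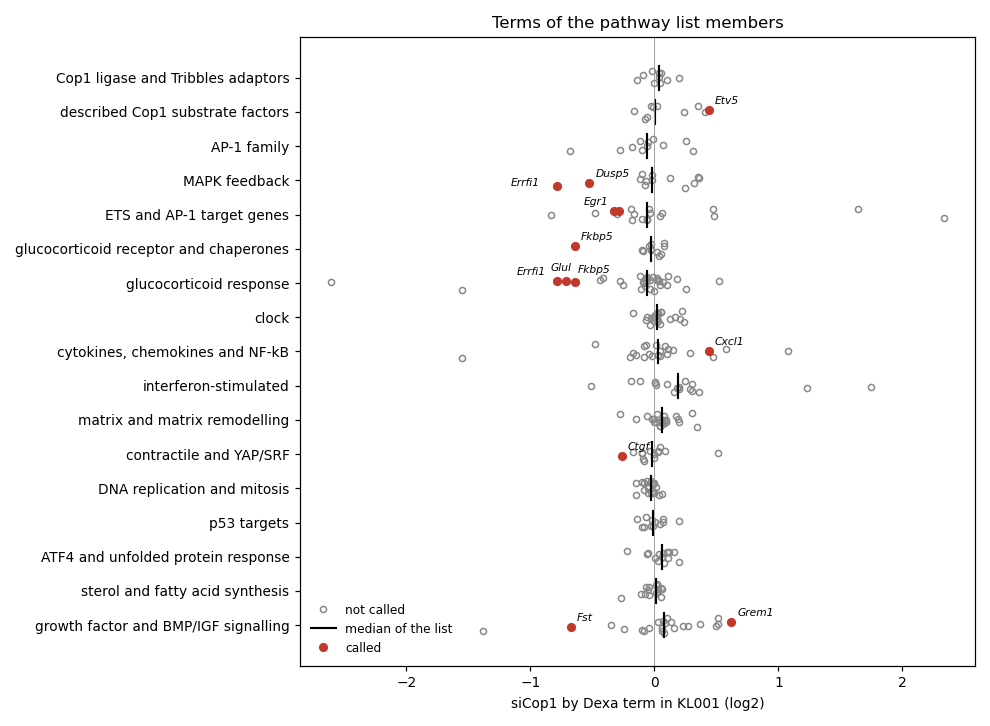
Terms in KL001 (log2) of the tested members of the 17 gene lists. Open grey points are members not called, red points are called members, with names for those described, and black lines are list medians. Most members lie near 0, and the called ones run from Errfi1 at -0.79 to Grem1 at 0.62.

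The size of the Dexa response was then compared over genes chosen without the 12 libraries, as changed by Dexa at least 2-fold in siCTRL DMSO cells (2.88% of genes tested). The choice used siCTRL cells and not siCop1 cells, so it can favour genes whose response is smaller in siCop1. The shares below describe genes chosen in this way and do not measure the whole Dexa response. For the 319 genes induced there, the median log2 change with Dexa was 1.58 in siCTRL KL001 and 1.5 in siCop1 KL001. The median of the gene-wise terms was -0.09, against 0.01 over all genes, and the response was smaller in siCop1 for 195 and larger for 124 (61.1% smaller). For the 106 genes lowered there, the medians were -1.09 and -1.01, the median term was 0.20, and the response was smaller for 69 and larger for 37 (65.1% smaller). The call counts for the term were 21 of the 319, 17 smaller and 4 larger, and 7 of the 106, all smaller. Over all genes tested, 83 of 14772 were called (0.562%). Of all genes tested, 6965 had a negative and 7807 a positive term. The spread of the library medians within groups (SD, pooled over the groups) was 0.016 for the induced and 0.053 for the lowered genes. Leaving out single libraries gave medians from -0.124 to -0.0686 and from 0.161 to 0.255. Without the library that stood apart they were -0.114 and 0.255. With no minimum on the fold, the medians were -0.015 over 1881 and 0.018 over 2076 genes.

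The 12 DMSO libraries hold the same comparison and share no library with the 12 KL001 libraries. There the edgeR test called 99 genes (0.67%), 43 with a higher (0.291%) and 56 with a lower term (0.379%). With each set of 12 fitted alone, 52 genes were called in KL001 and 97 in DMSO, and 38 were called in both, which is 73.1% of the former and 39.2% of the latter. All 52 called in KL001 had the same sign in DMSO (100%, exact 95% binomial interval 93.2 to 100, which treats genes as independent), against 53.3% of all 14206 genes in both fits. In the other direction 95 of the 97 had the same sign in KL001 (97.9%). The median absolute term of the 52 was 0.47 in KL001, and their median in DMSO, counted in the direction found in KL001, was 0.40. In the single fit on all 24 libraries, all 83 had the same sign in DMSO and 52 were called there.

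Of the 24 genes named for the size of their term (12 of each sign), 20 were also called in DMSO, such as Errfi1 with -0.79 in KL001 and -0.88 in DMSO, Fkbp5 with -0.64 and -0.76, Dkk2 with 1.11 and 1.20, and Tll1 with 0.79 and 0.73. Sepp1 (edgeR adjusted p = 0.0915 in DMSO), Ccbe1 (0.153), Dusp5 (0.174) and Aif1l (0.935) were the 4 that were not called in DMSO. Aif1l was at -0.52 in KL001 and -0.09 in DMSO. Whether a term differs between KL001 and DMSO was tested directly, as the KL001 term minus the DMSO term. No gene was called (0 of 14772, 0%) by edgeR, with 582 at an unadjusted p below 0.05 (3.94%), and none by DESeq2, with 358. Without the filter on low counts edgeR called 30, of which 28 were genes that pass the filter. Their median standard error was 0.115 in that fit and 0.642 with the filter. The difference was -0.44 (SE 0.15) for Aif1l, -0.47 (SE 0.20) for Nptx1, 0.38 (SE 0.15) for Ace and 0.26 (SE 0.091) for Grem1, each with an edgeR adjusted p of 0.994. For Errfi1, Fkbp5 and Dkk2 it was 0.09 (SE 0.081), 0.12 (SE 0.068) and -0.09 (SE 0.12). A p above the threshold does not show that the terms are equal, and standard errors of this size leave room for modest differences.

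**Figure D5:**
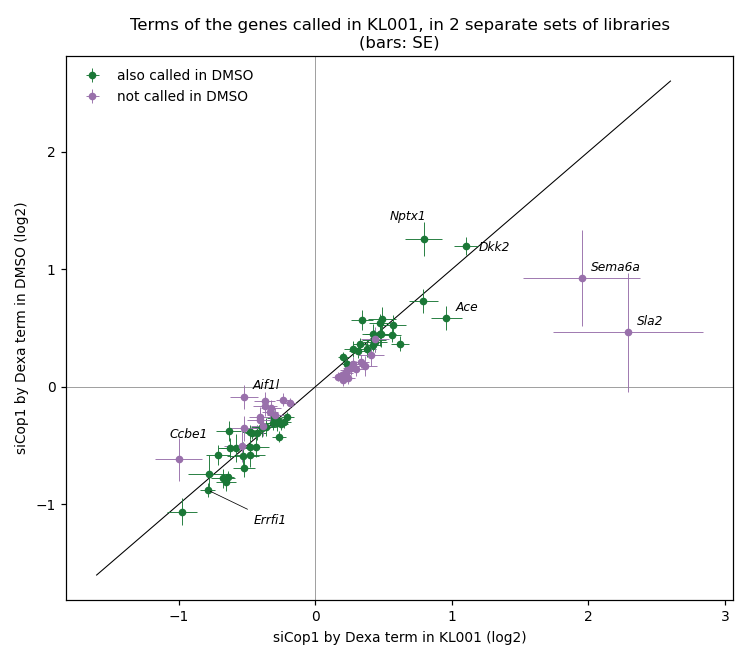
Terms of the 83 genes called in KL001, in the KL001 libraries (horizontal) and in the DMSO libraries (vertical), both on the log2 scale from 1 fit, with standard errors. The diagonal marks equal terms. All 83 have terms of the same sign in both, and 52 (green) were also called in DMSO. Sla2 and Sema6a, at under 1 CPM, have the widest errors.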

How the data were processed

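RNA-seq of mouse embryonic fibroblasts was analysed from the table of raw counts that the authors deposited, with 1 column of whole-number read counts per gene for each of 24 libraries. Per the labels' protocols, RNA went through a stranded mRNA kit and was read as single ends. Per the submitters' processing notes the tools included bcl2fastq 1.8.4, STAR 2.4.5a, featureCounts from Subread 1.4.6-p3, Picard 1.126 and DESeq2, with builds GRCm38 and mm10. The strand setting of the counting is not given in the sources used here. A deposited table of normalized values was not used. All columns of the count table were mapped to samples by name. Totals ran from 21409988 to 27875023 counts per library.

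All 24 libraries were fitted together with edgeR 4.0.16 (R 4.3.3, limma 3.58.1) over the 8 groups, with TMM scaling, robust quasi-likelihood dispersions, 16 residual degrees of freedom and filterByExpr (minimum count 10, minimum total 15), which kept 14772 genes of 28837 with a count. The common biological coefficient of variation was 3.71%. Tests were two-sided, with Benjamini-Hochberg adjustment over all genes tested and a threshold of 0.05. Alternatives were RLE scaling, no filter, DESeq2 1.42.0, a replicate block, a fit on the contrast's own libraries, and leaving out each library. Gene positions are from the GENCODE annotation on GRCm38 and promoter windows from RefSeq (GRCm38.p6).

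Named genes were, for each sign, the 12 with the largest terms among genes called in all fits leaving out 1 KL001 library and at 1 CPM or more, without Gm, Rik, RP and pseudogene symbols. Called members of the 17 pathway lists, Rfwd2, and the 4 most abundant uncalled members of the glucocorticoid response, ligase, substrate and clock lists were added. The comparison, the 17 pathway lists and the 9 marker lists were chosen with earlier results of these data known. Results for some genes are not reported here.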

Additional observations from a re-analysis of the deposited data

How the results depend on the processing

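The 83 calls for the term in KL001 became 79 with RLE scaling, 91 with DESeq2 and 75 with the replicate block, 156 without the filter on low counts (60 higher, 96 lower) and 52 with only the 12 KL001 libraries. Of the 156, 69 were among the 83 and 5 were genes below the filter. In the other 82 the median standard error fell from 0.129 to 0.0718. Leaving out 1 library gave 43 to 94 calls, with a split of 29 higher to 60 lower without the siCTRL library without Dexa numbered 1 and of 52 to 42 without the one numbered 2. The term in DMSO rose from 99 to 230 calls without the filter and ran from 71 to 107 with 1 library left out. The difference between the terms rose from 0 to 30 calls without the filter (6 higher, 24 lower), 2 of them below the filter, the median standard error of the other 28 falling from 0.642 to 0.115. It stayed at 0 in the 24 fits that left out 1 library. Calls for Dexa ran from 3397 to 3852 in siCTRL KL001 and from 3051 to 3202 in siCop1 KL001 with 1 library left out, and those for siCop1 from 3973 to 4703 without Dexa and from 3619 to 3871 with it. The median terms of the genes induced and lowered by Dexa at least 2-fold in siCTRL DMSO ran from -0.124 to -0.0686 and from 0.161 to 0.255, and were -0.015 and 0.0183 with no minimum fold. For the named called genes, 459 values under the alternatives kept their call, 34 lost it and none reversed. The deviations of same-numbered libraries from their group means correlated from -0.17 to 0.464 over 18 pairs (median 0.0138, 7 over 0.1), and those of differently numbered ones from -0.391 to 0.272 over 36 (median -0.00907, 8 over 0.1). Since not every same-numbered pair was over 0.1, the numbers were not taken as pairs in the main fit. That rule cannot settle whether the numbers mark shared cultures, because some same-numbered pairs correlated and others did not. On the third principal component the siCTRL KL001 libraries lay in the same order of numbers without and with Dexa. With the replicate block, Egr1 had an edgeR adjusted p of 0.0545, and 73 of the 75 calls were among the 83. Depth limits mainly genes near or under 1 CPM, such as Sla2.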

Other observations

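Further genes called for the term lie outside the naming rule and were chosen here after their values were seen. 1810011O10Rik, skipped above because of its symbol, had a term of -0.98 (SE 0.11, edgeR adjusted p = 2.93e-06). It rose from 5.48, 5.10 and 5.11 CPM to 15.9, 16.9 and 15.1 CPM with Dexa in siCTRL and from 10.5, 11.4 and 12.4 CPM to 18.8, 17.7 and 16.4 CPM in siCop1, so that the siRNAs were apart without Dexa and close with it. Tes, a focal adhesion protein, was higher in siCop1 in both states, at 81.8 ± 2.61 against 46.96 ± 0.850 CPM without Dexa and 129.7 ± 2.02 against 103 ± 1.92 CPM with it (SD, n = 3), and its term was -0.46 (SE 0.047, edgeR adjusted p = 5.25e-07). Adarb1, an RNA-editing adenosine deaminase, was induced 1.88-fold in siCTRL and 1.35-fold in siCop1, with a term of -0.48 (SE 0.060, edgeR adjusted p = 1.32e-05).

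Among abundant genes with small terms, Rspo2, an enhancer of Wnt signalling, fell from 466 ± 18.3 to 228 ± 6.55 CPM in siCTRL and from 336 ± 3.22 to 194 ± 1.88 CPM in siCop1, with a term of 0.23 (SE 0.040, edgeR adjusted p = 0.00173). Ptx3, a secreted pattern recognition pentraxin, rose 1.82-fold in siCTRL and 2.29-fold in siCop1, where its level was lower in both states, with a term of 0.33 (SE 0.056, edgeR adjusted p = 0.00151). F2r, the thrombin receptor, had a term of -0.28 (SE 0.046, edgeR adjusted p = 0.00120). It rose with Dexa by 0.33 on the log2 scale in siCTRL and stood at 0.05 (edgeR adjusted p = 0.319) in siCop1. The 2 largest terms among the 83, 2.29 (SE 0.55) for Sla2 and 1.95 (SE 0.43) for Sema6a, rest on genes under 1 CPM on average. Sla2 was between 0.0386 and 0.273 CPM in siCop1 without Dexa, and both calls were lost when some single libraries were left out (edgeR adjusted p up to 0.185 and 0.166).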
